A study of Homo sapiens with 4 samples.

Results

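The 9 genes described here encode replacement histone variants: H2AX, H2AZ1, H2AZ2, H2AJ, MACROH2A1 and MACROH2A2 of the H2A family, H3-3A and H3-3B, which both encode H3.3, and CENPA, the H3 variant of the centromere. They were taken by gene name from 60605 annotated genes, and all 9 were among the 22185 genes with a mean level high enough to be tested. RNA of OVCAR3, an established line derived from a serous ovarian adenocarcinoma, was sequenced in 4 libraries, 2 from etoposide treated and 2 from DMSO treated cells. Etoposide, which traps topoisomerase II on DNA and leaves double-strand breaks, was given at 1.7 µM for 24 h, and DMSO was its vehicle. Cells of both groups had first been held for 16 h in nocodazole (100 ng/mL), which arrests cells in mitosis, and then released into fresh medium over 3 h, so that neither group was an unsynchronised culture. The comparison asks how gene expression in these cells differed after chemically induced DNA damage.

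Canonical histones are made in S phase from clustered genes whose mRNA ends in a stem-loop and lacks a poly(A) tail. Replacement variants are encoded by genes outside the control of DNA replication, mostly with introns and polyadenylated mRNA (H2AX mRNA is known in both forms), and are placed into nucleosomes by dedicated chaperones. H2AX is phosphorylated beside DNA breaks, H2A.Z sits at promoters, H3.3 marks active genes and telomeres, macroH2A carries a large globular domain, and CENP-A defines the centromere.

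Levels are given as FPKM (fragments per kilobase, relative to the mapped fragments of each library), summed over the annotated transcripts of a gene. Differences are log2 fold changes of FPKM + 0.1, etoposide over DMSO, with p-values from limma's moderated test adjusted by Benjamini-Hochberg over all 22185 genes. The mapped sequence behind the files was 9.54 and 11.7 gigabases in etoposide libraries and 12.9 and 13.3 gigabases in DMSO libraries. At the lowest, a member was covered by 118 reads per base of transcript. The labels call the libraries of a group biological replicates without saying how the cultures were separated, and p-values measure only the spread between them. Of the 10 markers of epithelial cells and of serous ovarian carcinoma, all were at an FPKM of 1 or more in every library. PAX8 was at 222 and 214 in etoposide and 258 and 248 in DMSO treated cells. The summed FPKM of the 10 markers was 2099 and 2168 in etoposide and 2684 to 3028 in DMSO treated cells, with 8 of 10 lower. The general epithelial keratins led this sum, with KRT8 at 772 and 821 in etoposide and 1266 and 1055 in DMSO treated cells. KRT18 was at 611 and 639 against 944 and 835. The part of this lower sum in the results below was not tested. Markers of other cell types were low, led by COL1A1 among fibroblast markers at 6.11 and 5.80 in etoposide and 4.36 and 4.42 in DMSO treated cells, KDR among endothelial markers (at most 5.01) and UPK3B among mesothelial markers (at most 2.73). Leukocyte markers summed to between 0.659 and 0.838 in all libraries, and no single one exceeded 0.382. One technical feature set the DMSO libraries apart. Across genes, the log2 difference between libraries had a Spearman correlation with GC content of −0.016 for etoposide 2 over 1 and −0.340 for DMSO 2 over 1, and with transcript length of 0.017 for etoposide and 0.317 for DMSO. The log2 fold change, etoposide over DMSO, had a correlation of −0.289 with GC content and of 0.194 with transcript length. All these values are across genes, which are no replicates, and have no p.

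At an adjusted p of 0.05, 0 of the 9 genes passed, beside 0% of all genes (0 of 22185). The adjusted p of the 9 ranged from 0.289 to 0.923. At an unadjusted p of 0.05, 4 of 9 passed (CENPA, H2AX and H2AJ lower, MACROH2A1 higher), beside 11.9% of all genes (7.06% higher, 1566 genes, and 4.85% lower, 1077 genes). The direction of those genes depended on the scaling, with 2165 higher and 692 lower in TPM, 1240 and 1342 after scaling to the median, and 1494 and 1853 with values corrected for length and GC content. Leaving out DMSO 2 brought 4 of 9 members (CENPA, H2AX, H2AJ and H3-3A, all lower) past an adjusted p of 0.05, beside 8.72% of all genes (2.66% lower), while leaving out DMSO 1 brought 0. Without DMSO 2 but corrected for length and GC content, 0 of these 4 passed (adjusted p = 0.092 for CENPA, 0.136 for H2AJ, 0.144 for H3-3A and 0.185 for H2AX), beside 0% of all genes. In such a fit the single DMSO library left is assumed to vary like the etoposide libraries. The 2 groups did not overlap for 7 of 9 members, against 47.9% of all genes and 54.3% of genes with a mean FPKM of 10 or more, which all 9 exceeded. Of those 7, H2AZ1 and MACROH2A1 were higher in etoposide treated cells (28.9% of all genes were higher without overlap). CENPA, H2AX, H2AJ, H3-3A and H3-3B were lower (19% of all genes were lower without overlap). The median log2 fold change was −0.12 over the 9 members and 0.04 over all genes. With TPM the median of the members was −0.05 and that of all genes 0.10. RNA was taken from whole cultures, in which fewer cells of a phase and less RNA per cell cannot be told apart.

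**Figure D1:**
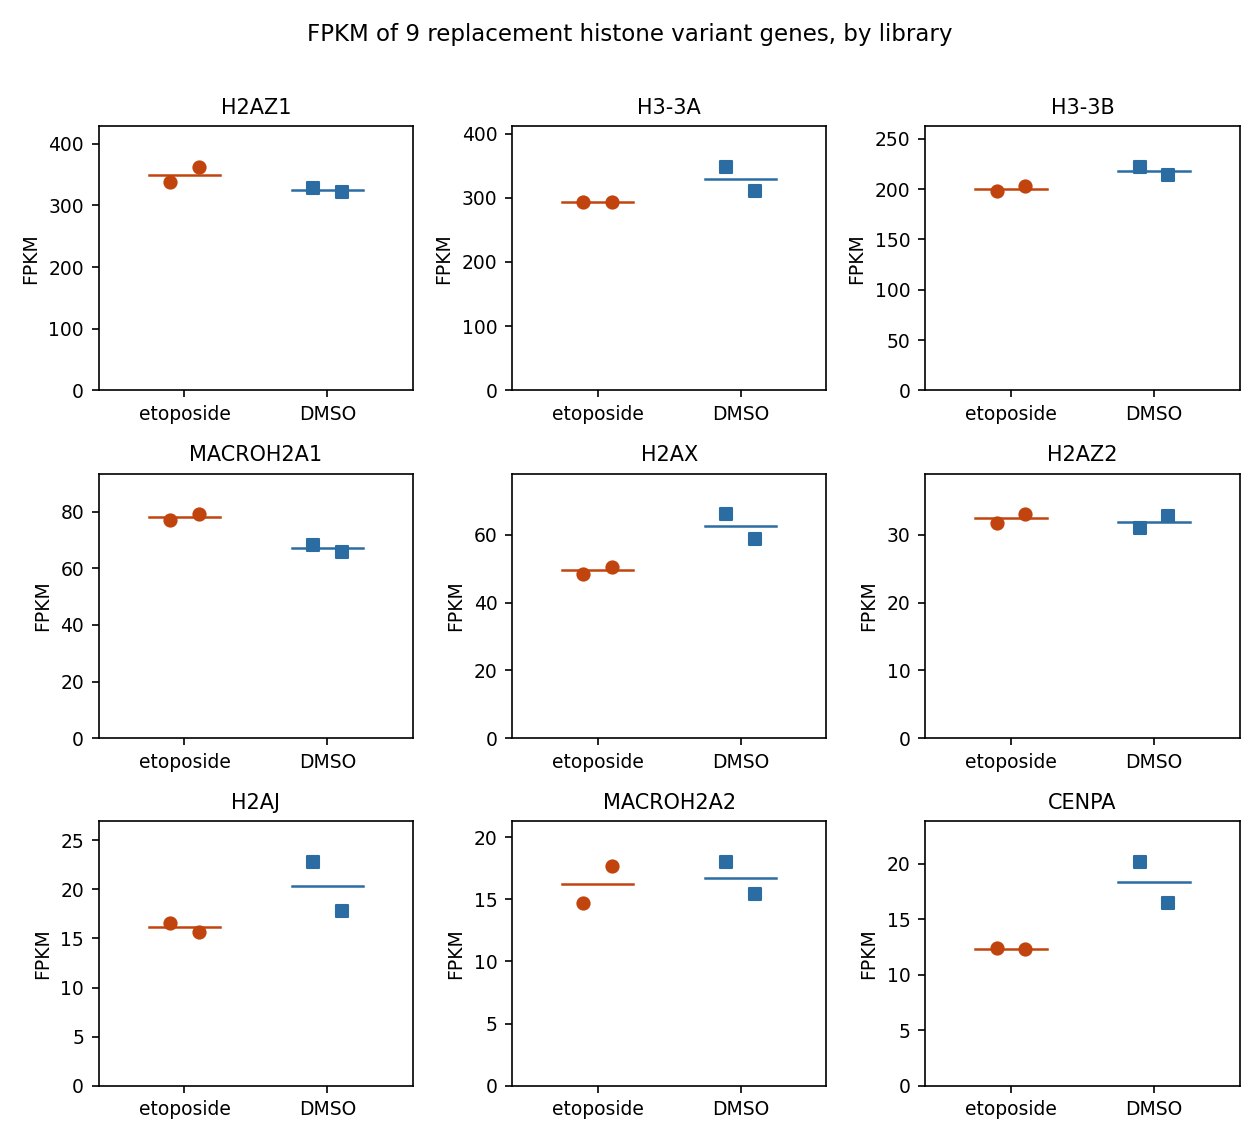
FPKM (vertical axis, from 0) of each of the 9 genes in etoposide treated (circles) and DMSO treated (squares) OVCAR3 cells, 1 point per library, with the mean as a line. The etoposide points of CENPA, H2AX, H2AJ, H3-3A and H3-3B lie below both DMSO points, those of H2AZ1 and MACROH2A1 lie above, and those of H2AZ2 and MACROH2A2 overlap with DMSO.

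The members differed widely in level. H2AZ1 and H3-3A stood highest with mean FPKM of 338 and 312 over the 4 libraries, in ranges that overlapped. H3-3B followed at 209, and did not overlap with its neighbours in this order. The ranges of MACROH2A1 at 72.6 and H2AX at 56.0 overlapped, though MACROH2A1 was the higher within each library. H2AZ2 at 32.2 stood apart from both its neighbours. H2AJ at 18.2, MACROH2A2 at 16.5 and CENPA at 15.3 were the lowest, each overlapping with the next. FPKM are scaled per length but not for GC content, so that this order is approximate. H3-3A can share reads with copies that summed to 123 to 130 FPKM, described below. Its place beside H2AZ1 is therefore uncertain.

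H2AX lies on the minus strand of chromosome 11 (GRCh38, chr11:119093854-119095467) and has a single main transcript, ENST00000530167, which held 90.8% to 93.1% of its FPKM. Its protein differs from canonical H2A by a C-terminal tail whose serine is phosphorylated by ATM, ATR and DNA-PK at breaks. Phosphorylation was not measured here. The promoters of the 3 members of lowest fold change, H2AX, CENPA and H2AJ, are shown because these genes were lower in etoposide treated cells and because the CCAAT box and the cell cycle homology region (CHR) are known from cell cycle and histone promoters. The sequences are those 250 bases before the transcription start in RefSeq (GRCh38.p14), 5′ to 3′ along the gene. Capitals mark matches on either strand to CCAAT, to the TATA motif TATAAA and to the CHR motif TTTGAA.

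H2AX promoter: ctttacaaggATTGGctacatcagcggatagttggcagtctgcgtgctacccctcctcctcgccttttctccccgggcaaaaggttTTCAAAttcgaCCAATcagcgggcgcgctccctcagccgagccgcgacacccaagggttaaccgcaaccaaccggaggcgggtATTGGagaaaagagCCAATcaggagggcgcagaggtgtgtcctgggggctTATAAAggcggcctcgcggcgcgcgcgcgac
CENPA promoter: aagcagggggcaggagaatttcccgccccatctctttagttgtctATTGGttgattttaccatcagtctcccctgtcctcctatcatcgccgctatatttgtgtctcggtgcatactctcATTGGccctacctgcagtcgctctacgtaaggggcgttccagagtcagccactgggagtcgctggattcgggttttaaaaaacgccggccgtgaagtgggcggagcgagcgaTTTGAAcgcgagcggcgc
H2AJ promoter: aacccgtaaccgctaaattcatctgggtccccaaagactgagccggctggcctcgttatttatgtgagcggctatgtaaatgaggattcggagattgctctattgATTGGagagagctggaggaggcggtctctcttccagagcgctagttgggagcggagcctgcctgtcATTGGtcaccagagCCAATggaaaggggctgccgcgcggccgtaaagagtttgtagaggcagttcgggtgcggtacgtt

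These windows are chr11:119095466-119095715 (minus strand) for H2AX, chr2:26785806-26786055 (plus strand) for CENPA and chr12:14774155-14774404 (plus strand) for H2AJ. H2AX had 4 matches to CCAAT, which began 240, 153, 81 and 67 bases before the start, with a TATAAA at 31 bases and a TTTGAA at 164. CENPA had 2 matches to CCAAT at 205 and 130 bases and a TTTGAA at 18 bases. H2AJ had 3 matches to CCAAT, at 145, 79 and 65 bases, and none to the other motifs. No match overlapped with another in these windows. Among 35116 RefSeq promoters of this length, 32.0% held a CCAAT, 10.7% a TATAAA and 13.3% a TTTGAA on either strand. Members that were not lower could hold such motifs too. H2AZ1 had 3 matches to CCAAT and a TATAAA, and H2AZ2 had 4 matches to CCAAT. MACROH2A1 had 2 matches to CCAAT in 1 promoter and 0 in another, and MACROH2A2 had no match to any motif. Of the other lower members, H3-3B had 4 matches to CCAAT and a TATAAA, and H3-3A had at most 1 CCAAT in any promoter. A match of letters is a description and not a bound site.

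The FPKM of H2AX was 48.4 and 50.6 in etoposide treated and 66.1 and 58.8 in DMSO treated cells. Both etoposide libraries lay below both DMSO libraries, and the DMSO libraries differed more from each other than the etoposide libraries did. The mean was 49.5 ± 1.52 against 62.5 ± 5.16 (SD, n = 2 each). The log2 fold change was −0.33 with a standard error of 0.086 (95% interval for the single gene −0.54 to −0.12, adjusted p = 0.327, limma). H2AX transcripts have a GC content of 66.5%, above that of 98.3% of the genes tested, and DMSO 2 was lower than DMSO 1 by a log2 difference of −0.17. Corrected for length and GC content, H2AX had a log2 fold change of −0.21 (adjusted p = 0.159), and −0.18 (adjusted p = 0.185) when DMSO 2 was also left out. How far GC content took part in the difference was not tested beyond this correction.

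CENPA encodes the H3 variant that replaces H3 in centromeric nucleosomes. It is transcribed mainly in G2 phase, and its protein is loaded after mitosis with the help of the chaperone HJURP. The gene lies at chr2:26764289-26801067 on the plus strand. Its FPKM was 12.4 and 12.3 in etoposide treated cells, against 20.2 and 16.5 in DMSO treated cells. The etoposide libraries nearly coincided, and both lay below the lower DMSO library. CENPA had the lowest fold change among the 9 genes, with a log2 value of −0.56, or 0.680 of the DMSO level (standard error 0.116, 95% interval −0.84 to −0.27, adjusted p = 0.289, limma). In absolute size this exceeded 92.4% of all genes tested. Corrected for length and GC content, the log2 fold change was −0.52 (adjusted p = 0.094, limma). Without DMSO 1 it was −0.41, and without DMSO 2 it was −0.70, or −0.62 with the correction as well. The sum includes ENST00000460030, which has no defined coding sequence, at 3.44 and 3.55 FPKM against 8.49 and 2.77. Without DMSO 2 the log2 fold change was −1.26 for this transcript and −0.17 for the full-length ENST00000335756. Without DMSO 1 these were 0.32 and −0.79. The gene overlaps on the same strand with SLC35F6, at 7.85 and 8.01 FPKM in etoposide and 7.49 and 7.82 in DMSO treated cells.

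Genes of the G2 and M phases were lower beside CENPA, and genes of S phase were higher. Of 20 G2 and M phase genes, 19 were lower, 12 of them at an unadjusted p of 0.05 and 0 past the adjusted threshold, with a median log2 fold change of −0.28. Over all genes, 43.8% were lower, and 4.85% were lower at that unadjusted p. In TPM 17 of 20 were lower, and without DMSO 2 13 of 20. MKI67, a marker of cycling cells, was at 15.3 and 14.8 FPKM in etoposide and 15.4 and 23.6 in DMSO treated cells, which rests on DMSO 2. TOP2A, the topoisomerase that etoposide targets, was at 40.9 and 39.5 in etoposide and 38.6 and 46.3 in DMSO treated cells, and overlapped. Of 20 S phase genes, 19 were higher, with a median of 0.25 (17 of 20 once corrected for length and GC content). At an unadjusted p of 0.05, 13 were higher, beside 7.06% of all genes, and 0 passed the adjusted threshold. Over all genes, 12458 of 22185 were higher. PCNA, the replication clamp, was at 56.8 and 55.9 FPKM against 43.6 and 43.8 in DMSO treated cells (log2 fold change 0.37, adjusted p = 0.269, limma). MCM2, a subunit of the replicative helicase, was at 65.2 and 64.5 FPKM against 54.8 and 55.9 in DMSO treated cells (log2 fold change 0.23, adjusted p = 0.350, limma). The part of cell cycle position in the values of CENPA was not tested.

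The genes that load CENP-A were mixed. Of 9 such genes, 6 were higher and 3 lower, with 0 past the adjusted threshold. Their median was 0.14, and 0.0045 once corrected for length and GC content. HJURP had an FPKM of 14.6 and 14.9 in etoposide and 15.4 and 16.5 in DMSO treated cells, without overlap (log2 fold change −0.11, adjusted p = 0.590, limma). MIS18A, which primes centromeres for loading, was at 23.9 and 23.7 against 24.4 and 22.3 in DMSO treated cells, and overlapped.

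H2AJ, an H2A variant known to accumulate in senescent human fibroblasts with lasting DNA damage, lies at chr12:14774383-14778002 on the plus strand. It was at 16.6 and 15.7 FPKM in etoposide treated and 22.8 and 17.8 in DMSO treated cells. Both etoposide libraries were lower than DMSO 2, by a small margin, and DMSO 1 stood above the other 3 libraries. The log2 fold change was −0.32 with a standard error of 0.131 (95% interval −0.64 to −0.00079, adjusted p = 0.419, limma). Without DMSO 1 it was −0.15 and without DMSO 2 it was −0.50, so that its size rests on which DMSO library is used. The GC content of its transcripts, 60.1%, exceeded that of 87.6% of the genes. Its shorter transcript ENST00000544848, which encodes the full protein of 129 amino acids, was at 14.8 and 13.8 FPKM in etoposide and 19.2 and 14.5 in DMSO treated cells, and overlapped. The long form ENST00000501744, annotated for nonsense-mediated decay, was at 1.79 and 1.87 against 3.20 and 2.69 (log2 fold change −0.65, adjusted p = 0.838 over all transcripts, limma).

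**Figure D2:**
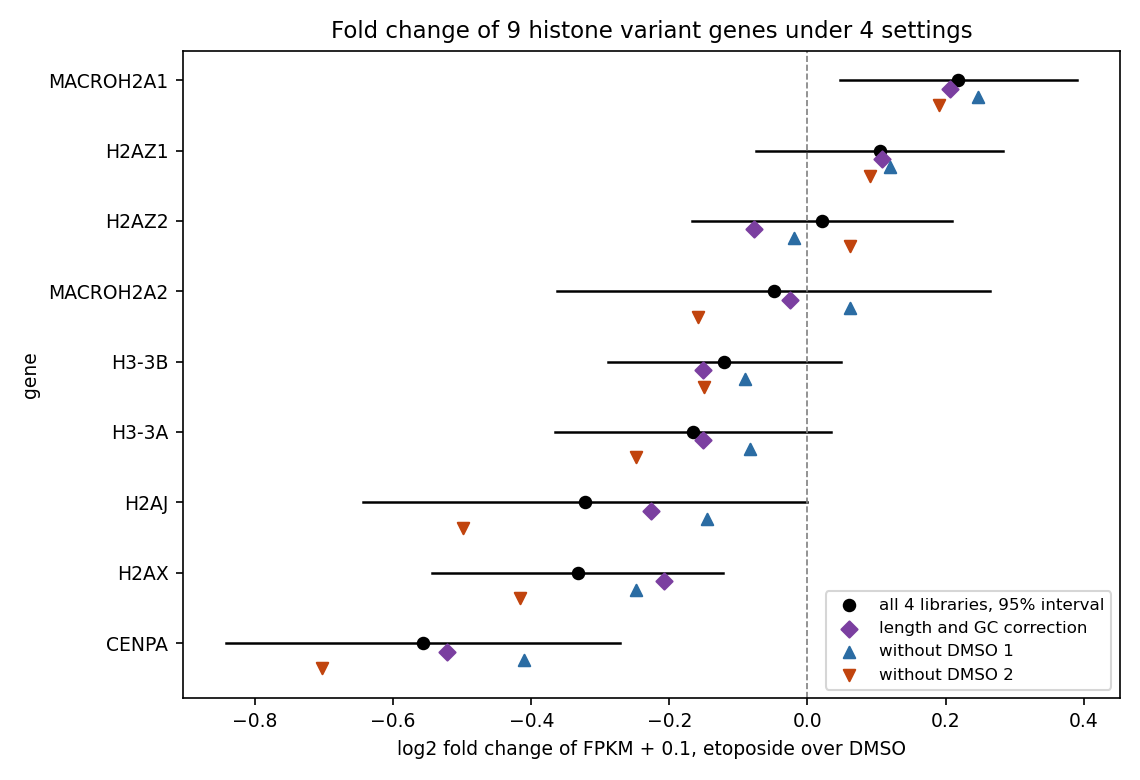
Log2 fold change of FPKM + 0.1, etoposide over DMSO (horizontal axis), of the 9 genes under 4 settings, with the 95% interval of the fit on all 4 libraries as a line. CENPA, H2AX, H2AJ, H3-3A and H3-3B stay left of 0 and H2AZ1 and MACROH2A1 right of 0 under all 4, H2AZ2 and MACROH2A2 fall on both sides, and the value without DMSO 2 is the farthest to the left for CENPA (−0.70), H2AX (−0.42), H2AJ (−0.50) and H3-3A (−0.25).

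The 2 genes of H3.3 encode the same protein and were both lower in etoposide treated cells by a difference that did not pass the test. H3-3A (chr1:226061851-226072019, plus strand) was at 293 and 294 FPKM in etoposide and 349 and 311 in DMSO treated cells. The etoposide libraries were nearly equal and lay below DMSO 2. Its log2 fold change was −0.17 (standard error 0.081, 95% interval −0.36 to 0.03, adjusted p = 0.454, limma), −0.08 without DMSO 1 and −0.10 in TPM. H3-3B (chr17:75776434-75785893, minus strand) was at 198 and 203 FPKM in etoposide and 222 and 213 in DMSO treated cells, again without overlap. Its log2 fold change was −0.12 (standard error 0.069, 95% interval −0.29 to 0.05, adjusted p = 0.493, limma), and −0.05 in TPM. The ratio of H3-3A to H3-3B was 1.48 and 1.45 in etoposide and 1.57 and 1.46 in DMSO treated cells, and overlapped (exact permutation test over libraries, two-sided, p = 0.667, adjusted p = 0.667 over 3 ratios). With 2 libraries a group this test cannot give a p below 0.33.

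Reads of H3-3A can be shared with processed pseudogenes. Of 40 histone pseudogenes and related copies searched, 13 shared at least one run of 50 bases with the exons of a member, and 10 of these with H3-3A. All such runs of H3P6 (100%) are also in H3-3A, and it was listed at 98.1 and 97.3 FPKM in etoposide and 102.8 and 98.8 in DMSO treated cells. The 10 copies summed to 125 and 123 FPKM in etoposide and 130 and 123 in DMSO treated cells, which was 27.2% to 29.9% of the sum of gene and copies. This is not a share of reads, because FPKM is scaled per length and the copies are shorter (H3P6 has 411 bases, H3-3A 1002 on average). Reads that fit both cannot be assigned to one of them. The level of H3-3A is therefore uncertain, by an amount that was not measured. For the gene and its copies together, the log2 fold change was −0.13 (adjusted p = 0.509). The copies of H2AZ1, H2AZ2 and H3-3B added at most 2.85% to any library. No run of 50 bases was shared between members.

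Several chaperones place H3.3, HIRA with UBN1 in genes and DAXX with ATRX at telomeres and pericentromeres. Of 7 genes of these complexes, 4 were higher and 3 lower, and 0 passed at either threshold (median 0.01). HIRA was at 16.2 and 16.0 FPKM in etoposide and 15.8 and 16.7 in DMSO treated cells. UBN1 was at 12.2 and 11.8 against 11.7 and 12.2 in DMSO treated cells. Both overlapped between the groups. Once corrected for length and GC content, 2 of the 7 were higher, so that no direction can be given for the list.

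The H3-3A locus held the largest difference between groups among the main transcripts of the 9 genes, those with 10% or more of the FPKM of their gene on average. ENST00000366816, which starts from an exon upstream of the others, was at 19.6 and 2.60 FPKM in etoposide and 204 and 138 in DMSO treated cells. This was 6.69% and 0.885% of the gene in etoposide and 58.5% and 44.5% in DMSO treated cells (a log2 fold change of −4.53, standard error 1.09, adjusted p = 0.715 over 71340 transcripts, limma). ENST00000366815, which starts at the next exon, was at 172 and 166 FPKM against 69.5 and 119 (log2 fold change 0.89, standard error 0.296, adjusted p = 0.848), or 0.50 without DMSO 1 and 1.28 without DMSO 2. ENST00000655399 was at 48.9 and 95.6 against 46.4 and 46.4. The 3 transcripts encode the same 136 amino acids. The sum over the gene did not show this shift.

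The exon that only ENST00000366816 uses did not carry its FPKM. Its first exon (chr1:226061851-226062094) had a coverage per base of 3.79 and 3.93 in etoposide and 6.13 and 8.80 in DMSO treated cells. Its exon 3, whose bounds are the same in ENST00000366815, was given a coverage of 277 and 43.2 in etoposide and 4188 and 2734 in DMSO treated cells. The first exon thus had 1.37% and 9.08% of the coverage of exon 3 in etoposide and 0.146% and 0.322% in DMSO treated cells. Nearly all of its coverage lay on exons in common with other transcripts, among which StringTie divides the reads, and the split is not read here as a difference in start site.

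**Figure D3:**
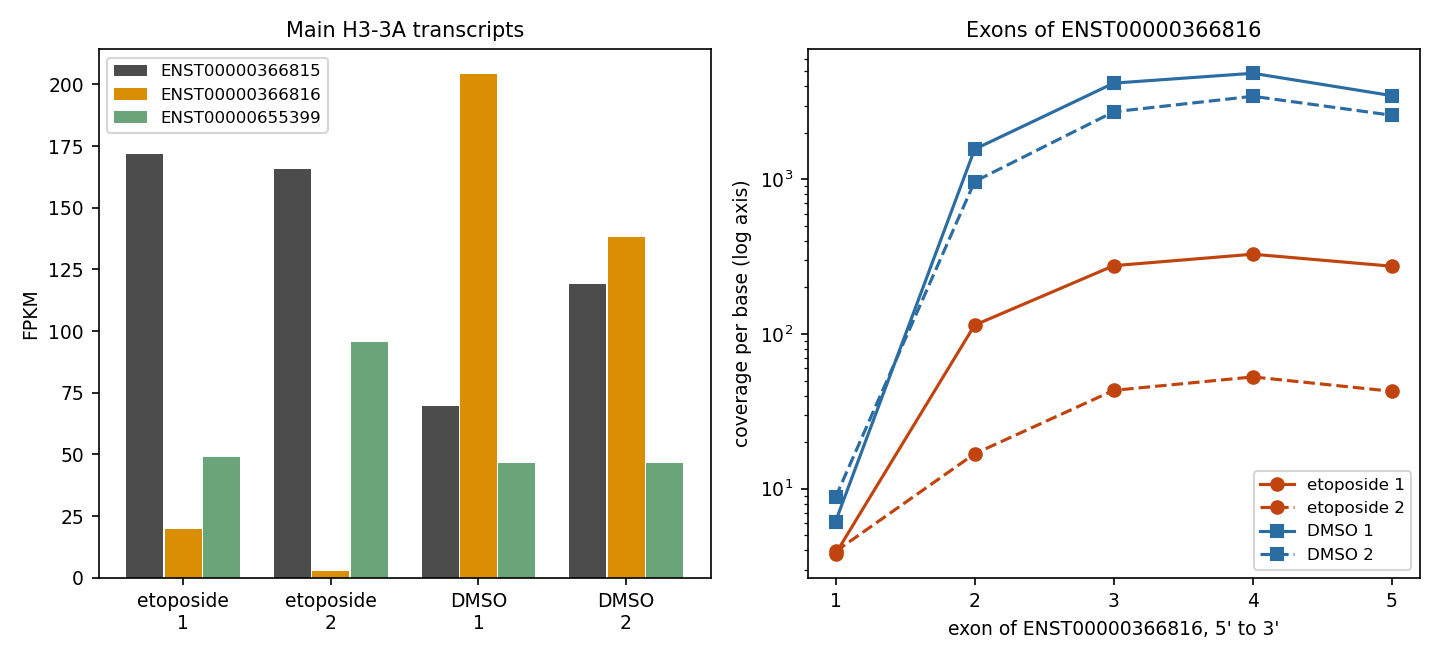
Left, FPKM (from 0) of the 3 main transcripts of H3-3A in each library. Right, coverage per base (log axis) given to each of the 5 exons of ENST00000366816, with the etoposide libraries at 277 and 43.2 and the DMSO libraries at 4188 and 2734 on exon 3. On exon 1, the exon that ENST00000366815 lacks, they were at 3.79 and 3.93 in etoposide and 6.13 and 8.80 in DMSO treated cells.

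MACROH2A1 had the highest fold change of the 9 genes. It encodes macroH2A1, whose macro domain lies outside the nucleosome, and lies at chr5:135333900-135399914 on the minus strand. Its FPKM was 77.0 and 79.2 in etoposide treated and 68.4 and 65.8 in DMSO treated cells. The gap between the groups was wider than the difference within either of them. The log2 fold change was 0.22, or 1.16 times the DMSO level (standard error 0.070, 95% interval 0.05 to 0.39, adjusted p = 0.373, limma). It lay between 0.19 and 0.29 under the settings tried on the summed FPKM. MACROH2A2 (chr10:70052544-70112282, plus strand), which encodes the paralog macroH2A2, was at 14.7 and 17.7 FPKM in etoposide and 18.0 and 15.5 in DMSO treated cells. Its groups overlapped (log2 fold change −0.05, 95% interval −0.36 to 0.26, adjusted p = 0.891), and its sign turned to 0.02 in TPM and to 0.06 without DMSO 1. The ratio of MACROH2A1 to MACROH2A2 was 5.24 and 4.47 in etoposide and 3.80 and 4.26 in DMSO treated cells, without overlap (exact permutation test over libraries, two-sided, p = 0.33, the smallest it can give, adjusted p = 0.50 over 3 ratios).

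The 2 splice forms of MACROH2A1 differ in 1 of a pair of mutually exclusive exons. MacroH2A1.1 binds ADP-ribose through the pocket its exon completes, and macroH2A1.2 does not. The exons are shown because the data can be read from them directly. They are given in the direction of the gene from the GRCh38 genome, with the only run of 8 or more bases that they share in capitals.

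macroH2A1.1 exon: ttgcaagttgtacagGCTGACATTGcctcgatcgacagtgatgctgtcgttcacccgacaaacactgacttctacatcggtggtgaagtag
macroH2A1.2 exon: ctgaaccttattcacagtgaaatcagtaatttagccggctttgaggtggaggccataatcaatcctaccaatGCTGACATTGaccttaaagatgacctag

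The macroH2A1.1 exon of 91 bases lies at chr5:135350823-135350913 and the macroH2A1.2 exon of 100 bases at chr5:135352946-135353045. In coverage per base, summed over the transcripts that hold it and not scaled for depth, the macroH2A1.1 exon had 113 and 152 in etoposide and 168 and 158 in DMSO treated cells. The macroH2A1.2 exon had 672 and 739 in etoposide and 799 and 840 in DMSO treated cells, and was the more used of the pair in every library. The share of macroH2A1.1 by this measure was 14.4% and 17.1% in etoposide and 17.3% and 15.9% in DMSO treated cells. The groups overlapped, with means of 15.7 ± 1.92% against 16.6 ± 1.05% (SD, n = 2 each, exact permutation test, two-sided, p = 0.667).

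By FPKM, the share of macroH2A1.1 among the transcripts with either exon was 28.5% and 52.8% in etoposide and 43.5% and 27.8% in DMSO treated cells. This share was higher than that of exon coverage in every library and varied more within a group than between groups (exact permutation test, two-sided, p = 0.667). The transcript ENST00000312469, which encodes macroH2A1.1 of 369 amino acids, was at 12.7 and 32.3 FPKM in etoposide and 23.0 and 12.95 in DMSO treated cells. ENST00000304332, which encodes macroH2A1.2 of 371 amino acids, was at 27.0 and 27.5 FPKM against 20.7 and 21.9, without overlap (log2 fold change 0.35, standard error 0.098, adjusted p = 0.780 over all transcripts, limma). ENST00000511689, which also holds the macroH2A1.2 exon, went the other way, at 8.50 and 2.66 FPKM against 10.6 and 15.3. Summed, the transcripts with the macroH2A1.2 exon were at 35.5 and 30.1 FPKM in etoposide and 31.3 and 37.2 in DMSO treated cells, and overlapped.

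**Figure D4:**
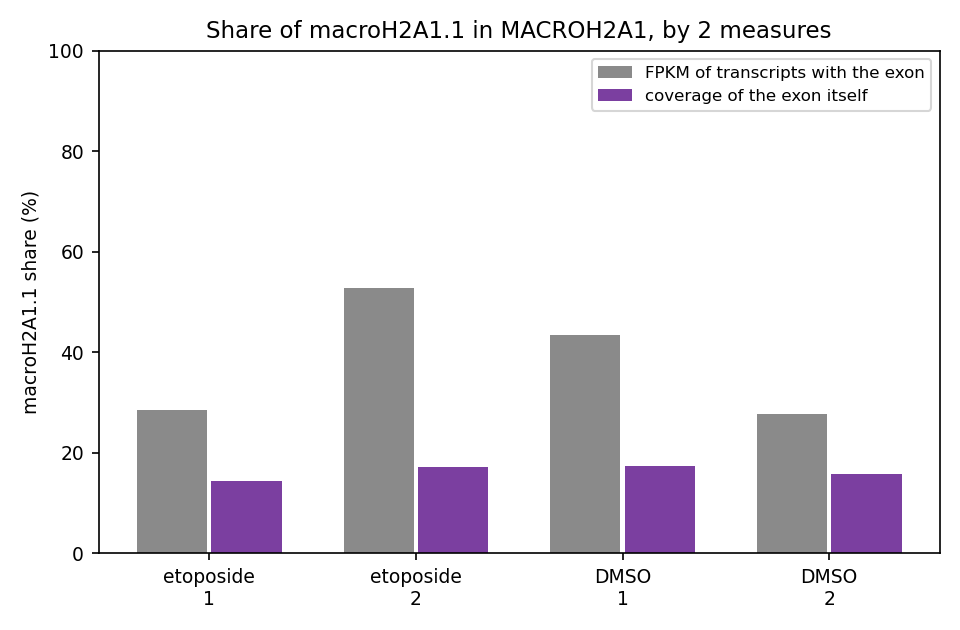
Share of macroH2A1.1 (%, from 0 to 100) in the sum of macroH2A1.1 and macroH2A1.2 in each library, by the FPKM of transcripts that hold either exon and by the coverage of the exons themselves. Transcripts of MACROH2A1 with neither exon are left out. By exon coverage all 4 libraries lie between 14.4% and 17.3%, while by FPKM they spread from 27.8% to 52.8% with no order by group.

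The genes that act with macroH2A were mixed. Of 6, 4 were higher and 2 lower, 0 passed the adjusted threshold, and the median was 0.19, but −0.01 without DMSO 1. PARP1, the main source of ADP-ribose chains at breaks, was at 96.2 and 94.3 FPKM in etoposide and 79.6 and 89.0 in DMSO treated cells (log2 fold change 0.18, adjusted p = 0.439, limma). HELLS, a chromatin remodeller that places macroH2A, was at 11.5 and 11.3 against 7.53 and 8.78 (log2 fold change 0.48, adjusted p = 0.298, limma).

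H2AZ1 and H2AZ2 encode the near-identical proteins H2A.Z.1 and H2A.Z.2. H2AZ1 (chr4:99948086-99950355, minus strand) was at 337 and 363 FPKM in etoposide and 329 and 322 in DMSO treated cells. The groups did not overlap, by a margin smaller than the gap between the etoposide libraries. The log2 fold change was 0.10 (standard error 0.073, 95% interval −0.07 to 0.28, adjusted p = 0.557, limma). It was 0.05 without etoposide 2, 0.16 without etoposide 1 and 0.17 in TPM. H2AZ2 (chr7:44826791-44848087, minus strand) was at 31.8 and 33.1 FPKM in etoposide and 31.1 and 32.9 in DMSO treated cells, and overlapped. Its log2 fold change was 0.02 (95% interval −0.17 to 0.21, adjusted p = 0.923), and its sign turned to −0.08 once corrected for length and GC content and to −0.01 after scaling to the median. The ratio of H2AZ1 to H2AZ2 was 10.6 and 10.97 in etoposide and 10.6 and 9.80 in DMSO treated cells (exact permutation test over libraries, two-sided, p = 0.33, adjusted p = 0.50 over 3 ratios).

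The transcripts of H2AZ1 were not stable between libraries of a group. ENST00000296417, which encodes the full protein of 128 amino acids, held 64.6% and 63.8% of the gene in etoposide and 31.6% and 75.6% in DMSO treated cells. The DMSO libraries were thus the lowest and the highest of the 4. ENST00000651623, with a protein of 127 amino acids, was at 12.7 and 43.9 FPKM against 101 and 30.3, and the retained intron form ENST00000511319 at 93.4 and 60.0 against 104.4 and 37.1. For H2AZ2 the split was steady, with 46.5% to 48.1% of the gene in ENST00000308153 in all libraries. CENPA was split unevenly in DMSO treated cells. Its full-length form ENST00000335756 held 44.3% and 44.02% of the gene in etoposide and 30.5% and 57.6% in DMSO treated cells.

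Over all 9 genes, 102 transcripts were annotated and 66 were abundant enough to be tested. At an adjusted p of 0.05, 0 of the 66 passed, beside 0% of 71340 transcripts (smallest among the members 0.297). Without adjustment, 13 of the 66 were under 0.05, beside 5.78% of all. The groups did not overlap for 27 of the 66, against 37.6% of all transcripts. Of the 20 main transcripts, 11 did not overlap. In H3-3B, ENST00000254810 held 69.9% to 71.6% of the gene in every library.

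The exchange of H2A.Z is carried out by the SRCAP and EP400 complexes, and INO80 and ANP32E act in its removal. Of 12 genes of this list, 5 were higher and 7 lower, 0 passed the adjusted threshold, and the median was −0.02, or 0.05 in TPM. SRCAP was at 5.57 and 6.76 FPKM in etoposide and 6.27 and 12.1 in DMSO treated cells, a difference that rests on DMSO 2. EP400 was at 10.6 and 10.1 against 9.09 and 10.7, and overlapped.

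Genes that phosphorylate, read or write the mark on H2AX were mostly higher while H2AX itself was lower. Of 10 genes, 9 were higher, 5 of them at an unadjusted p of 0.05 (beside 7.06% of all genes) and 0 past the adjusted threshold. The median was 0.30, 0.15 without DMSO 1, and 0.14 once corrected for length and GC content. ATM, a kinase activated by breaks, was at 4.15 and 4.54 FPKM in etoposide and 2.54 and 4.06 in DMSO treated cells (log2 fold change 0.42, adjusted p = 0.466, limma). PRKDC, the catalytic subunit of DNA-PK, was at 44.6 and 44.8 FPKM against 23.5 and 39.6 (log2 fold change 0.55, adjusted p = 0.423, limma). In both, DMSO 1 stood far below the other 3 libraries.

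Outside the 9 members, the other histone genes were mostly lower. Of 6 tested replication-independent histones of other kinds, 6 were lower under every scaling tried, with a median of −0.62 and 0 past the adjusted threshold. Over all genes, 43.8% were lower. Only 3 genes of this list were at an FPKM of 1 or more in every library. H1-10, a linker histone, was at 138 and 148 FPKM in etoposide and 233 and 199 in DMSO treated cells (log2 fold change −0.60, adjusted p = 0.267, limma). Of 55 tested replication-dependent histone genes, 48 were lower (43 of 55 in TPM), with a median of −0.43. At an unadjusted p of 0.05, 27 were lower, beside 4.85% of all genes, and 0 passed the adjusted threshold. Of the 64 genes listed, only 27 were at an FPKM of 1 or more in every library. H1-2 was at 53.6 and 58.0 FPKM against 102 and 86.3 (log2 fold change −0.75, adjusted p = 0.217, limma), and H1-1 was at or near 0 in all libraries and was not tested. The labels describe mRNA libraries, and whether the replication-dependent transcripts seen in them carried poly(A) tails was not tested. The median of the 9 replacement variants, −0.12, lay between those of the other histones and that of all genes, and the lists were not tested against each other.

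**Figure D5:**
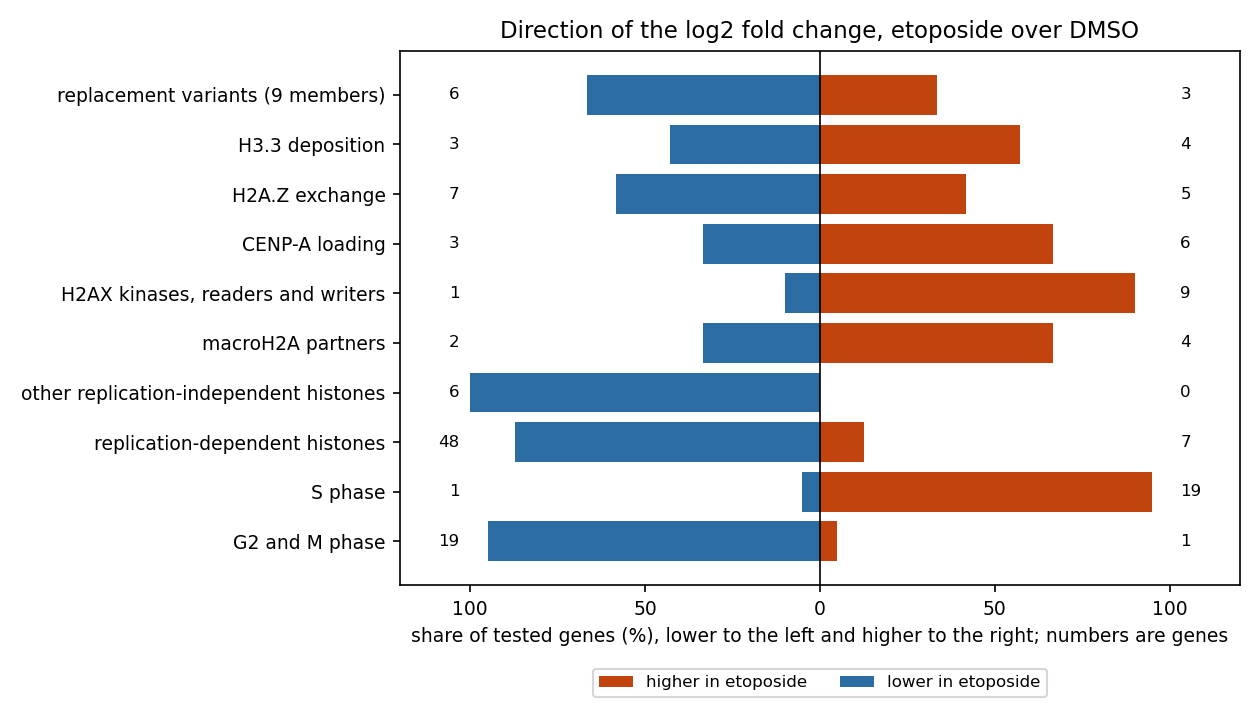
Share of the tested genes of each list (%) with a higher (right) or lower (left) level in etoposide than in DMSO treated cells, with the number of genes at each end. Other histones and G2 and M phase genes lie mostly to the left and S phase genes to the right, while the 9 replacement variants split into 3 higher and 6 lower.

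Genes with the most similar pattern over the 4 libraries were sought among 14246 protein-coding genes by the root mean square difference of centred log2 values. CENPA was the least common pattern, with 21 genes within 0.05, of which CCNB3 (0.0124) and CEND1 (0.0221) were the nearest. H2AJ had 53 genes within this distance, with NR2C2AP and CENPVL3 the nearest. H2AX had 178, with TSTD1 (0.0058) and DECR2 (0.0078) the nearest. MACROH2A2 had 85, with IRF1 and CAPN14 the nearest, and MACROH2A1 had 406, with ARMC9 and EIF1AD. The remaining members were flatter and had more, with 783 for H2AZ1 (ACAT1 and PRPS2), 965 for H3-3A (MRPL20 and HEXIM2), 1130 for H3-3B (CHMP4A and NCOA5) and 1224 for H2AZ2 (IFT57 and BTG1). CCNB3 (at most 0.193 FPKM), CENPVL3 (at most 0.287) and CAPN14 (at most 0.337) were near the 0.1 added to each value. With 4 libraries, many genes come this close, and nothing is read from the likeness.

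The StringTie command in the file headers sets no strand option, and where a member overlaps with a gene of the other strand their reads may not have been told apart. H3-3B overlaps with UNK, at 11.4 and 10.7 FPKM in etoposide and 9.55 and 9.02 in DMSO treated cells. MACROH2A2 overlaps with AIFM2, at 2.78 and 2.69 against 2.39 and 2.30. The partners of H2AZ1, H3-3A and MACROH2A1 are long noncoding RNAs of at most 0.725 FPKM, and H2AX, H2AZ2 and H2AJ have none. MIR4738, within H3-3B, was listed at or near 0 in all libraries.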

How the data were processed

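RNA of 2 etoposide and 2 DMSO libraries, made with a stranded mRNA kit, was read as pairs of 100 bases. Alignment by the authors was to GRCh38 (HISAT2, SAMtools), and they estimated annotated Ensembl transcripts with StringTie 2.1.7. The deposited value used here is the FPKM of each transcript, listed with its coverage per base and TPM in the attributes of a transcript file per library. The files used here hold no counts, and the authors' tests on counts with DESeq2 were not used.

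FPKM were summed per gene (60605 genes). The 22185 genes whose mean FPKM reached 0.1 were compared as log2(FPKM + 0.1) with limma 3.58.1 in R 4.3.3 (trend, robust), and 71340 transcripts likewise. Ratios and shares were compared by exact permutation over libraries. Tables and figures used Python 3.11.15, pandas 2.3.3 and matplotlib 3.10.9. On simulated data with the spread limma fitted, the fit recovered 34.8% of genes changed 1.5-fold, 63.6% at 2-fold and 93.6% at 4-fold. These data had independent errors and no shift by length or GC content. Their spread per gene was limma's moderated estimate, which varies less between genes than the measured spread. The shares recovered may be too high for the real libraries. Small changes can therefore be missed. Alternatives were pseudocounts of 1 and 0.01, a filter of 1 or none, TPM, scaling to the median, loess correction for length and GC content (span 0.3), no trend, no robust step, the replicate number as a block, each library left out, the most abundant transcript, and pseudogenes added. The exon coverage of MACROH2A1 and H3-3A and the correction without either DMSO library were added after seeing the data.

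The 9 members and all lists were chosen with earlier results of these data known. Named genes were the members, the first 2 genes of each list, the 2 nearest genes in pattern, and overlapping genes. A gene that this rule names is not reported here. Promoters came from RefSeq (GRCh38.p14), and gene types and coding sequences from GENCODE release 44. Reads and protein measurements were not analysed here. The study's sequencing methods mention transfection, which these libraries' labels do not.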

Additional observations from a re-analysis of the deposited data

How the results depend on the processing

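The count of genes past an adjusted p of 0.05 was 0 and became 6 with the length and GC correction, 5 with that correction without DMSO 1 and 0 with that correction without DMSO 2. Without the correction it ranged from 5 to 1934 when a library was left out, with 1934 called without DMSO 2, and 0 transcripts were called in any of these. Without DMSO 2 the members CENPA, H2AX, H2AJ and H3-3A passed, and 0 of them with the correction as well. Over the fits that left out 1 library each, the log2 fold change ranged from −0.70 to −0.41 for CENPA, from −0.42 to −0.25 for H2AX, from −0.50 to −0.15 for H2AJ and from −0.25 to −0.083 for H3-3A. It ranged from −0.019 to 0.061 for H2AZ2 and from −0.18 to 0.085 for MACROH2A2, whose signs were not stable. H2AZ2 was also at −0.078 with the length and GC correction (−0.068 without DMSO 1, −0.087 without DMSO 2) and at −0.011 with median scaling. MACROH2A2 was also at 0.049 with the correction without DMSO 1 and at 0.018 in TPM. H3-3A was at 0.89 from its most abundant transcript alone. Directions of CENPA, H2AX, H2AJ, H3-3B, H2AZ1 and MACROH2A1 held under every alternative tried.

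Among transcripts, leaving out a library gave ranges that crossed 0: −1.26 to 0.32 for ENST00000460030 of CENPA, −0.12 to 1.11 for ENST00000296417 and −0.48 to 1.01 for ENST00000511319 of H2AZ1, −0.023 to 0.096 for ENST00000308153 and −0.10 to 0.041 for ENST00000222690 of H2AZ2, and −0.44 to 0.90 for ENST00000312469 of MACROH2A1. So did the log2 ratio of H3-3A to H3-3B (−0.10 to 0.0080) and, in percentage points, the share of macroH2A1.1 by exon coverage (−2.22 to 0.496) and by FPKM (−7.07 to 17.2), of ENST00000296417 in H2AZ1 (−11.4 to 32.6), of ENST00000308153 in H2AZ2 (−0.137 to 1.16) and of ENST00000335756 in CENPA (−13.5 to 13.6). The causes were not tested.

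The labels do not say whether same-numbered libraries of the groups were paired. The deviations of replicate 1 in both groups from their group means had a correlation of 0.013 across genes. This value cannot settle the pairing, because the DMSO libraries also differed with GC content and length. With the replicate block 0 genes were called, and CENPA had an adjusted p of 0.181. The alternatives for pseudocount, filter, trend and robustness changed no call. No counting interval was made from the mapped bases.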
